A study of Mus musculus with 27 samples.

Results

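Hearts of mouse embryos that had lost 1 copy of both Nkx2-5 and Brg1 were compared with hearts that had lost 1 copy of Nkx2-5 alone, so that the difference is the loss of 1 Brg1 copy in a heart already short of Nkx2-5. The members were chosen by genotype in the labels and number 7 of the 27 arrays of the series: 3 labelled Nkx2-5+/-;Brg1+/- and 4 labelled Nkx2-5+/-. All hearts were dissected at stage E11.5 from mice of a mixed C57Bl/6 and BLKSW strain, and every group below shares that stage and strain. The sets used beside them were 3 arrays labelled Tbx5+/-;Brg1+/-, 5 labelled Tbx5+/-, 6 labelled Brg1+/- and 6 wild type. Total RNA was labelled with biotin and each sample was hybridised to 1 Affymetrix array, and values are RMA log2 signals of 19935 genes. The labels name no allele or breeding scheme and do not say whether the arrays of a group are separate embryos or pools, so every p below measures the spread between these samples, which may be partly technical.

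Brg1 is the product of Smarca4 and the motor subunit of BAF, a chromatin remodelling complex that uses ATP to move nucleosomes and so changes which stretches of DNA transcription factors can reach. Nkx2-5 is a homeodomain transcription factor of the heart muscle lineage that binds DNA together with Tbx5 and Gata4, and loss of 1 copy of its human counterpart causes septal and conduction defects. BAF subunits and these factors are known to act on a shared set of heart muscle genes in the mouse embryo. The comparison asks how the expression of the Nkx2-5 heterozygous heart differs when Brg1 is also reduced.

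Smarca4 was 9.47, 9.26 and 9.60 in the 3 arrays labelled Nkx2-5+/-;Brg1+/-, against 9.89, 10.08, 9.57 and 10.06 in arrays 1 to 4 labelled Nkx2-5+/-. Replicate 3 labelled Nkx2-5+/- lay among the Nkx2-5+/-;Brg1+/- arrays, while the other 3 lay above all of them, so the groups overlapped through that array alone. The difference was -0.45 on the log2 scale (SE 0.13, limma adjusted p = 0.0816), and without replicate 3 it was -0.56 (SE 0.12, limma adjusted p = 0.00347). Nkx2-5 was 9.03, 9.23 and 8.85 in the Nkx2-5+/-;Brg1+/- arrays, against 8.47, 8.48, 9.39 and 8.63 in the Nkx2-5+/- arrays. The array that goes against its label for Smarca4 thus had the highest Nkx2-5 signal of the 7 as well, inside the wild-type range of 9.17 to 9.96, which also held Nkx2-5+/-;Brg1+/- replicate 2 at 9.23. The Nkx2-5 difference of 0.30 did not pass (limma adjusted p = 0.532), nor did that of 0.51 without replicate 3 (limma adjusted p = 0.0699). Groups are named below as labelled, differences between them are given with all arrays and without Nkx2-5+/- replicate 3, and the reason for its values was not tested. Nkx2-5+/- replicate 3 was singled out after its values were seen. A smaller p without it is therefore no separate support for genes in which it departs from its group.

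Blood genes set the same array apart. The mean log2 signal of 15 erythroid genes was 8.78, 8.04 and 9.83 in the Nkx2-5+/-;Brg1+/- arrays, against 10.77, 11, 8.95 and 10.75 in the Nkx2-5+/- arrays. Wild-type arrays ran from 8.36 to 9.98, so 3 of the 4 Nkx2-5+/- arrays had more red cell signal than any wild-type heart, and replicate 3 did not. Such values were not particular to this genotype. Brg1+/- arrays reached 10.745 and Tbx5+/-;Brg1+/- arrays 10.196, while Tbx5+/- arrays reached 9.82. In a principal component analysis of the 7 arrays the first component held 45.2% of the variance, and replicate 3 scored 35.5 on it, beside 11.8 to 17.7 for the Nkx2-5+/-;Brg1+/- arrays and -33.3 to -19.1 for the other Nkx2-5+/- arrays. Tnnt2, the cardiac troponin T gene that marks heart muscle, was 13.15, 12.96 and 12.82 in the Nkx2-5+/-;Brg1+/- arrays, against 12.40, 12.19, 13.20 and 12.25 in the Nkx2-5+/- arrays. List means of liver, foregut and neural genes lay between 5.20 and 6.62 in the 7 arrays, and the values used here carry no detection calls. In RNA from whole hearts, fewer cells of a type and less RNA per cell cannot be told apart.

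**Figure D1:**
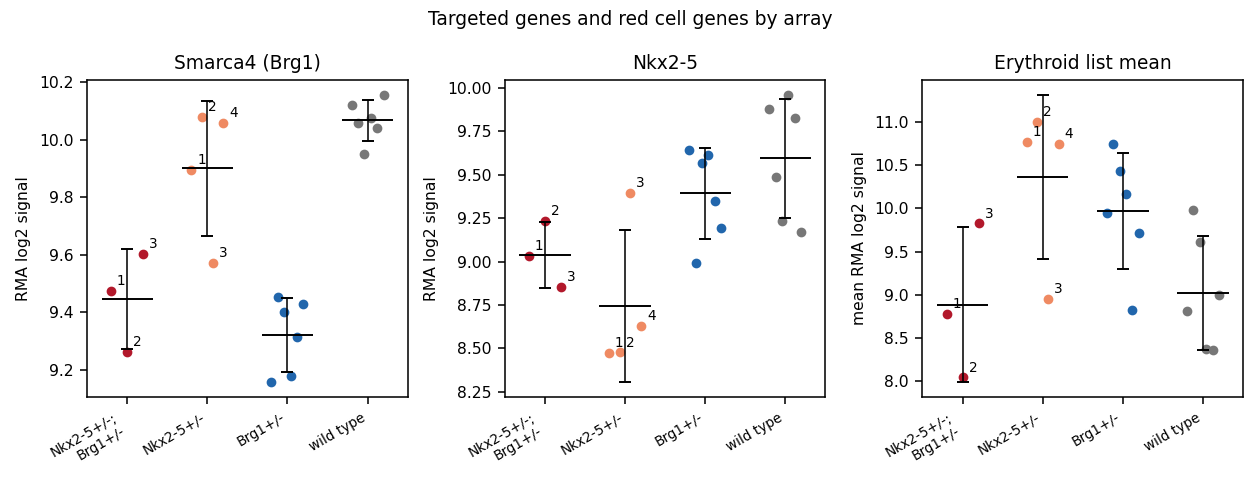
RMA log2 signal of Smarca4 and Nkx2-5 and the mean of the erythroid list, with 1 point per array, the group mean as a bar and the SD as whiskers; numbers are replicate numbers. Nkx2-5+/- replicate 3 lies at 9.57 for Smarca4, 9.39 for Nkx2-5 and 8.95 for the erythroid mean, apart from the other 3 arrays of its group in all panels.

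Losing 1 Brg1 copy from Nkx2-5+/- hearts was accompanied by a rise of 7 genes and a fall of 1. Those 8 genes are 0.0401% of the 19935 tested (limma adjusted p under 0.05), with 0.0351% higher and 0.00502% lower. At that share gene lists as short as those below would rarely hold a call, so a list without calls is not thereby set apart. At an unadjusted p under 0.05 the count was 3063 genes, or 15.4%. Groups that did not overlap were seen for 824 genes in the higher direction (4.13%) and 712 in the lower direction (3.57%). The median difference of all genes was 0.02 on the log2 scale, with 53.4% of genes above 0. Without Nkx2-5+/- replicate 3 the count was 2308 genes (11.6%), of which 1356 were higher (6.8%) and 952 lower (4.78%), and 310 differed by at least 2-fold. The 8 genes were called both with and without that array, but not in every other setting. Leaving out 1 other array at a time gave 33, 2 and 4 genes without Nkx2-5+/- replicates 1, 2 and 4, and 2, 0 and 357 genes without Nkx2-5+/-;Brg1+/- replicates 1, 2 and 3. The 0 in limma without Nkx2-5+/-;Brg1+/- replicate 2 stood beside 2169 genes at an unadjusted p under 0.05. A limma fit of the 2 compared groups alone also called 0 genes (1797 at an unadjusted p under 0.05).

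Apela, which encodes a peptide ligand of the apelin receptor known from zebrafish and mouse to act in early heart development, had the smallest p. Its log2 signal was 8.42, 8.48 and 8.66 in Nkx2-5+/-;Brg1+/- arrays, against 7.62, 7.32, 7.62 and 7.52 in Nkx2-5+/- arrays. The groups did not overlap, and Nkx2-5+/- replicate 3 sat with its own group. The rise was 1.0 on the log2 scale, or 2.0-fold (SE 0.15, limma adjusted p = 0.00714, n = 3 and 4). It was 1.03 without replicate 3 (limma adjusted p = 0.00106). Apela was also called with the erythroid mean as a covariate (1.05, limma adjusted p = 0.0411), and no other gene was.

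Of the called genes, Fmod, Aebp1, Cdh3 and Cd82 encode proteins of the extracellular matrix or cell surface. They were grouped so after the calls were known. None of the 20 genes of a separate collagen and matrix list passed with all arrays, beside 0.0401% of all genes. At that share 20 genes would rarely hold a call, so this says little about the list. Of the 20 genes 19 lay above 0. Fmod, which encodes the collagen-binding proteoglycan fibromodulin, was 8.38, 8.27 and 8.22 in Nkx2-5+/-;Brg1+/- arrays, against 7.59, 7.12, 7.30 and 7.37 in Nkx2-5+/- arrays. It rose by 0.94, with no overlap between groups (SE 0.16, limma adjusted p = 0.0201), and by 0.93 without replicate 3 of Nkx2-5+/- (limma adjusted p = 0.00185). Aebp1, whose product is a secreted collagen-binding protein, was 8.69, 8.50 and 8.71 in Nkx2-5+/-;Brg1+/- arrays, against 8.05, 7.59, 7.77 and 8.02 in Nkx2-5+/- arrays. The lowest Nkx2-5+/-;Brg1+/- array lay above the highest Nkx2-5+/- array, and the rise was 0.78 (SE 0.14, limma adjusted p = 0.0311), or 0.75 without replicate 3 (limma adjusted p = 0.0029). Cdh3, the adhesion protein P-cadherin, was 9.25, 9.37 and 9.38 in Nkx2-5+/-;Brg1+/- arrays, against 8.84, 8.43, 8.84 and 8.68 in Nkx2-5+/- arrays. This was the smallest of the 8 changes, a rise of 0.63 or 1.55-fold (SE 0.11, limma adjusted p = 0.0252), and it was 0.68 without replicate 3 (limma adjusted p = 0.00176). Cd82, a tetraspanin of the plasma membrane, was 9.94, 9.80 and 9.71 in Nkx2-5+/-;Brg1+/- arrays, against 9.28, 8.91, 8.99 and 9.22 in Nkx2-5+/- arrays. It rose by 0.71 with no overlap (SE 0.14, limma adjusted p = 0.047), and by 0.68 without replicate 3 (limma adjusted p = 0.00367).

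The other 3 genes act inside the cell or on proteases. S100a6, a small calcium-binding protein, was 7.17, 7.77 and 7.67 in Nkx2-5+/-;Brg1+/- arrays, against 6.65, 6.60, 6.68 and 6.26 in Nkx2-5+/- arrays. It rose by 0.99, or 1.99-fold (SE 0.17, limma adjusted p = 0.0201), and by 1.03 without Nkx2-5+/- replicate 3 (limma adjusted p = 0.00179). Cst9, of the cystatin family of cysteine protease inhibitors, was 4.66, 4.87 and 4.58 in Nkx2-5+/-;Brg1+/- arrays, against 3.70, 4.09, 3.60 and 3.80 in Nkx2-5+/- arrays. It rose by 0.90 (SE 0.17, limma adjusted p = 0.0311), and by 0.84 without that array (limma adjusted p = 0.00331), at a dim signal that a filter on low means removed. Arel1, an E3 ubiquitin ligase known to counter apoptosis, was 8.39, 8.12 and 8.82 in Nkx2-5+/-;Brg1+/- arrays, against 9.52, 9.35, 8.82 and 9.42 in Nkx2-5+/- arrays. Its groups met at 8.82, where replicate 3 of one group lay beside replicate 3 of the other. It fell by 0.83 (SE 0.16, limma adjusted p = 0.0491) and by 0.98 without Nkx2-5+/- replicate 3 (limma adjusted p = 0.00106).

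**Figure D2:**
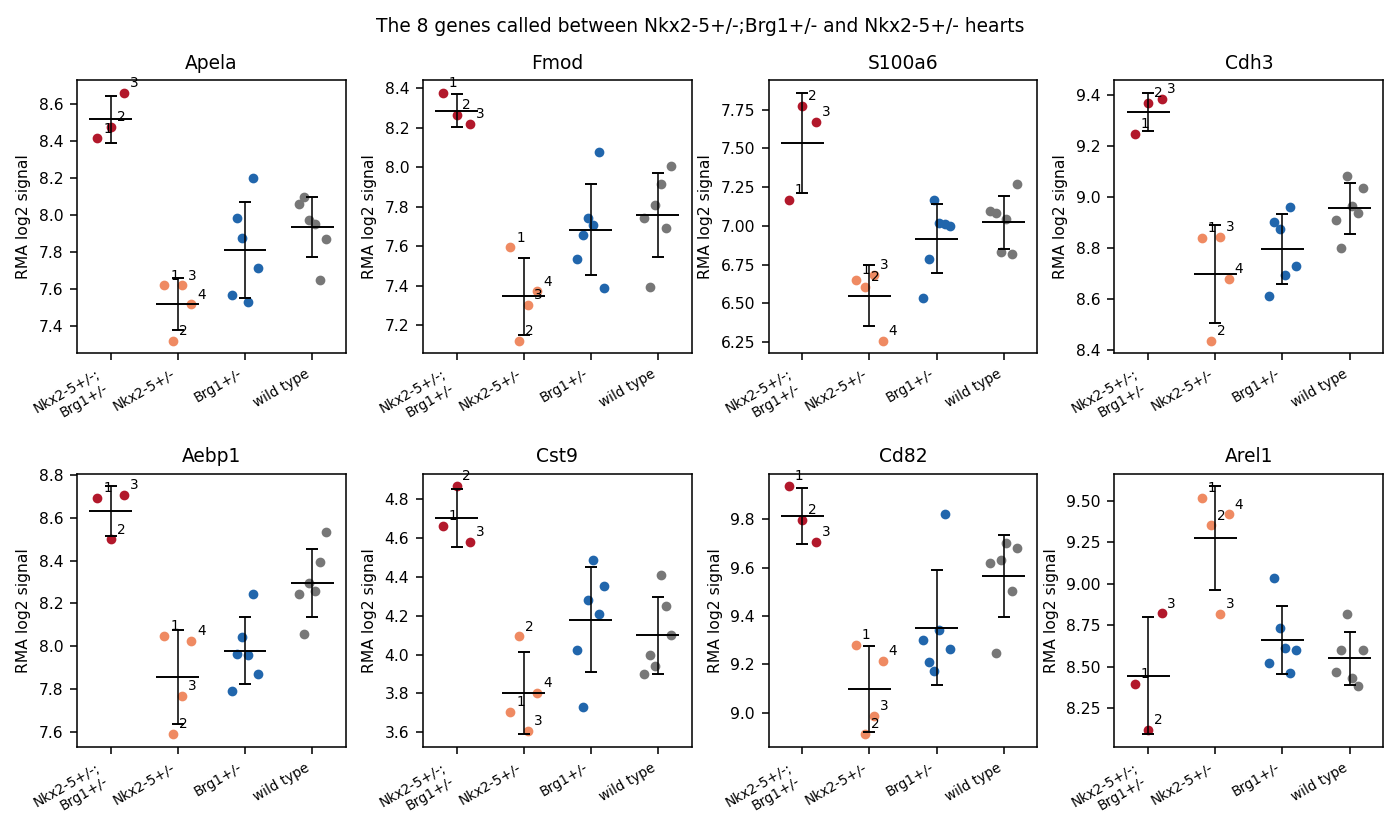
RMA log2 signal of the 8 called genes in 4 genotype groups, with 1 point per array, bars for the mean and whiskers for the SD; numbers are replicate numbers. In 7 panels every Nkx2-5+/-;Brg1+/- point lies above every Nkx2-5+/- point, and for Arel1 the groups meet at 8.82.

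Set beside wild-type hearts, each of the 7 higher genes had an Nkx2-5+/-;Brg1+/- mean above the highest wild-type array. Apela averaged 8.52 ± 0.13 in Nkx2-5+/-;Brg1+/- hearts (SD, n = 3), against 7.52 ± 0.14 in Nkx2-5+/- hearts (SD, n = 4) and 7.93 ± 0.16 in wild type (SD, n = 6). Cdh3 averaged 9.33 ± 0.07 in Nkx2-5+/-;Brg1+/- hearts (SD, n = 3), against 8.70 ± 0.19 in Nkx2-5+/- hearts (SD, n = 4) and 8.95 ± 0.10 in wild type (SD, n = 6). Apela, Fmod, Cdh3, Cst9 and Cd82 had no Nkx2-5+/-;Brg1+/- array within the wild-type range. S100a6 and Aebp1 had 1 each, at 7.17 below the wild-type maximum of 7.27 and at 8.50 below that of 8.53. Arel1 ran the other way: its Nkx2-5+/-;Brg1+/- mean of 8.45 ± 0.35 (SD, n = 3) lay near the wild-type mean of 8.55 ± 0.16 (SD, n = 6), and the Nkx2-5+/- mean of 9.28 ± 0.31 (SD, n = 4) stood apart. These comparisons with wild type are levels only and were not tested.

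The promoters of Apela, Fmod and S100a6, the genes with the 3 smallest p, are shown because these genes had the largest rises and because Nkx2-5 binds a short core, AAGTG. Windows span 250 bases before to 50 bases after the RefSeq start on GRCm38.p6, read along the gene's strand, and capitals mark AAGTG or its reverse complement CACTT. Apela lies at chr8:65037287-65037586 on the minus strand, Fmod at chr1:134037004-134037303 on the plus strand and S100a6 at chr3:90612644-90612943 on the plus strand.
Apela: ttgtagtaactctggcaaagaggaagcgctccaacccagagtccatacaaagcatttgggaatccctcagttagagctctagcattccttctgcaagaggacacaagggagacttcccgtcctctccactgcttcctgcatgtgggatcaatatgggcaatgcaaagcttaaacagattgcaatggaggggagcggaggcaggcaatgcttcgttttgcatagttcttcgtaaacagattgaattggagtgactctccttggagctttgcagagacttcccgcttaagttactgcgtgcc
Fmod: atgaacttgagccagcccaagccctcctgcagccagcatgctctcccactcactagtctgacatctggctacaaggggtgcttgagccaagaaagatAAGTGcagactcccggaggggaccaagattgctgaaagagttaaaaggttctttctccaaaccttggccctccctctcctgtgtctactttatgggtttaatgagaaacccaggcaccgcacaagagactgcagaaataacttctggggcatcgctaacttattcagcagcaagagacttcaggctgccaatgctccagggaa
S100a6: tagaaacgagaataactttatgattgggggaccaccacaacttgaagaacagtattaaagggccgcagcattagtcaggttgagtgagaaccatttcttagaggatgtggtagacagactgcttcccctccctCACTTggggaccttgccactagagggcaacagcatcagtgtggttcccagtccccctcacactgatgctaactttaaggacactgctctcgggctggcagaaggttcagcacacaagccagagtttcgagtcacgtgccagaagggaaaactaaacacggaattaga
Apela had no match to the core in its window, and Fmod and S100a6 had 1 each. The Fmod match overlaps a match to the GATA factor motif AGATAA. The core occurred on either strand in 46.379% of all 32851 promoter windows of the table, and AGATAA in 11.178%. Windows were found for 7 of the 8 called genes, and 10 windows were searched. The core had 1 match in Arel1, none in Aebp1 and Cst9, and between 0 and 2 in the 4 windows of Cd82. A match is a run of letters and not a binding site, and its absence says only that the letters are not in the window.

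Without Nkx2-5+/- replicate 3, the largest rises included heart muscle genes and the largest falls included red cell genes. Atp1b1, the beta subunit of the sodium pump, had an adjusted p of 2.8e-04 in limma for a rise of 0.96. Its log2 signal was 10.63, 10.31 and 10.41 in Nkx2-5+/-;Brg1+/- arrays, against 9.65, 9.41, 10.72 and 9.43 in Nkx2-5+/- arrays. The array left out was the highest of the 7, and with it the difference of 0.65 did not pass (limma adjusted p = 0.0904). The largest rise belonged to Rxfp1, a relaxin receptor, at 1.27 (limma adjusted p = 0.0084), against a difference of 0.81 with all arrays (limma adjusted p = 0.276). Cthrc1, a secreted protein of remodelling matrix, rose by 1.02 (limma adjusted p = 0.00379), against 0.83 with all arrays (limma adjusted p = 0.0796). A2m, a protease inhibitor of plasma, rose by 0.97 (limma adjusted p = 0.0433), but its signal of 8.13 in Nkx2-5+/-;Brg1+/- replicate 3 stood far above the 6.12 and 6.20 of replicates 1 and 2. With all arrays the A2m difference was 0.99 (limma adjusted p = 0.0867). Among the falls, Csf2rb, the shared beta receptor chain of several blood cytokines, fell by 2.70 (limma adjusted p = 0.00159). Csf2rb was 6.16, 6.04 and 6.32 in Nkx2-5+/-;Brg1+/- arrays, against 9.40, 7.78, 5.88 and 9.45 in Nkx2-5+/- arrays, and replicate 3 was the lowest of all, so that with all arrays the difference was -1.96 (limma adjusted p = 0.0852). Rhag, a membrane channel of red cells, fell by 2.46 (limma adjusted p = 0.0116) and Mt2, a metallothionein, by 2.13 (limma adjusted p = 0.0383). With all arrays their differences were -1.86 for Rhag (limma adjusted p = 0.143) and -1.92 for Mt2 (limma adjusted p = 0.114).

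Genes of the BAF complex itself lay on both sides of 0. Of 24 subunit genes none passed with all arrays, 12 lay above 0 and 12 below, and the median difference was 0.02, beside 0.02 for all genes. Pbrm1, the polybromo subunit of the PBAF form, had a difference of -0.44 with no overlap between groups (limma adjusted p = 0.0816). Smarcd3, the subunit known for its role in heart muscle of the mouse embryo, had a difference of 0.43 (limma adjusted p = 0.178). In the fit that left out Nkx2-5+/- replicate 3, the median was 0.03, 1 subunit rose (beside 6.8% of all genes) and 3 fell (beside 4.78%): Smarcd3 rose by 0.65 (limma adjusted p = 0.00218), and Pbrm1 fell by 0.52 (limma adjusted p = 0.00562).

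Transcription factors of the heart lay higher almost throughout. Of 20 genes, 19 were above 0 with all arrays, the median difference was 0.28 and none passed. Leaving out Nkx2-5+/- replicate 3, 12 rose (against 6.8% of all genes), none fell and the median was 0.52. Gata6, a zinc finger factor of heart and outflow tract, was 10.20, 10.23 and 10.19 in Nkx2-5+/-;Brg1+/- arrays, against 9.60, 9.34, 10.15 and 9.66 in Nkx2-5+/- arrays. The groups did not overlap, and the difference of 0.52 missed the threshold (limma adjusted p = 0.0867), while without replicate 3 Gata6 rose by 0.68 (limma adjusted p = 0.00307). Hand2, a basic helix-loop-helix factor of the right ventricle, had a difference of 0.47 (limma adjusted p = 0.0899) and rose by 0.61 without replicate 3 (limma adjusted p = 0.00358). Tbx20, a T-box factor of chamber muscle, rose by 0.81 (limma adjusted p = 0.00302) and Gata4, a partner of Nkx2-5, by 0.63 (limma adjusted p = 0.00315), both without replicate 3. With all arrays the differences were 0.50 for Tbx20 (limma adjusted p = 0.262) and 0.48 for Gata4 (limma adjusted p = 0.0948). Tbx5 was 8.56, 8.39 and 8.56 in Nkx2-5+/-;Brg1+/- arrays, against 7.92, 8.01, 8.54 and 7.82 in Nkx2-5+/- arrays. Its difference was 0.43 with all arrays (limma adjusted p = 0.144), and it rose by 0.59 without replicate 3 (limma adjusted p = 0.00743). With the erythroid mean as a covariate the median of the factor list was 0.03.

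Contractile genes lay higher as a group, with the calls again resting on 1 array. All 31 measured sarcomere genes lay above 0, from 0.01 to 1.12, with a median of 0.41, and none passed. When Nkx2-5+/- replicate 3 was left out, 26 of 31 rose (against 6.8% of all genes), none fell and the median was 0.68. Myoz2, the Z-disc protein calsarcin-1, was 9.06, 8.94 and 8.66 in Nkx2-5+/-;Brg1+/- arrays, against 7.76, 7.33, 7.95 and 8.02 in Nkx2-5+/- arrays. It had the largest difference of the list at 1.12, with no overlap (limma adjusted p = 0.0565), and rose by 1.19 without replicate 3 (limma adjusted p = 0.00625). Csrp3, a muscle LIM protein of the Z-disc, rose by 0.80 (limma adjusted p = 0.00106), and Fhl2, another LIM protein of heart muscle, by 0.97 (limma adjusted p = 0.00195), both without replicate 3. With all arrays the Csrp3 difference was 0.56 (limma adjusted p = 0.0904) and that of Fhl2 0.70 (limma adjusted p = 0.096). Tnnt2 had a difference of 0.47 with all arrays (limma adjusted p = 0.195) and rose by 0.70 without replicate 3 (limma adjusted p = 0.00475). The list mean was 10.64, 10.58 and 10.50 in Nkx2-5+/-;Brg1+/- arrays, against 9.98, 9.86, 10.81 and 9.88 in Nkx2-5+/- arrays, so the Nkx2-5+/-;Brg1+/- arrays sat inside the wild-type range of 10.41 to 10.92 and 3 Nkx2-5+/- arrays below it. Fitted with an erythroid covariate, the sarcomere median was 0.09 with all arrays and 0.43 without replicate 3, and the part of the red cell signal in these differences was not tested further.

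**Figure D3:**
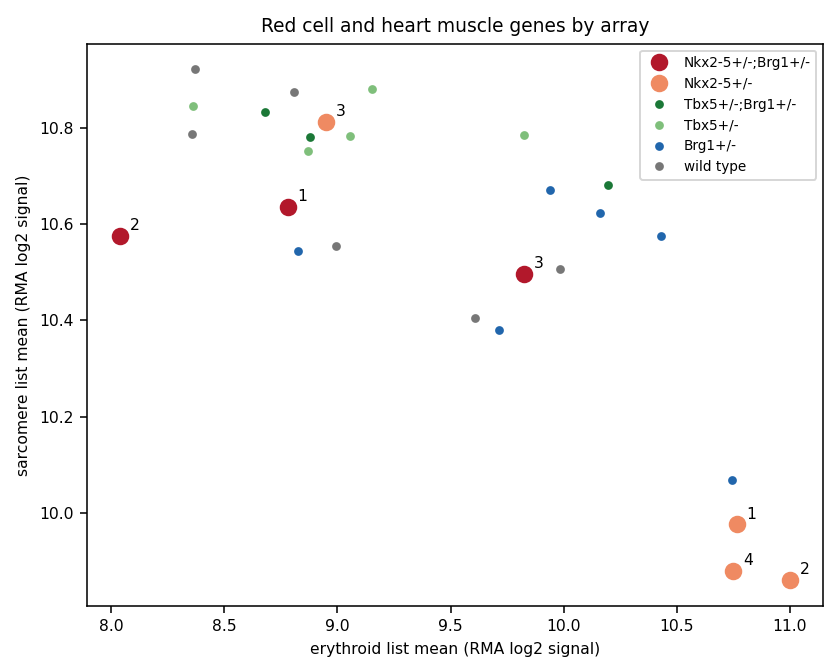
Mean RMA log2 signal of the sarcomere list against that of the erythroid list, with 1 point per array of all 27 and replicate numbers for the 7 compared. Nkx2-5+/- replicates 1, 2 and 4 lie at the lower right, with sarcomere means of 9.86 to 9.98 and erythroid means of 10.75 to 11, and replicate 3 lies at 10.81 and 8.95 among the other genotypes.

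Chamber genes, some of them also in the sarcomere list, lay higher too. Of 16 ventricular and trabecular genes 15 were above 0, with a median of 0.43, and 10 rose without Nkx2-5+/- replicate 3 (against 6.8% of all genes) at a median of 0.66. Nppb, the natriuretic peptide of ventricular muscle, was 10.55, 10.51 and 10.55 in Nkx2-5+/-;Brg1+/- arrays, against 9.68, 9.43, 10.38 and 9.52 in Nkx2-5+/- arrays. No array of one group entered the range of the other, and all 3 Nkx2-5+/-;Brg1+/- arrays lay above the wild-type maximum of 10.20. The difference was 0.79 (limma adjusted p = 0.0796), and Nppb rose by 1.0 without replicate 3 (limma adjusted p = 0.00267). Smpx, a small protein of the muscle costamere, had a difference of 0.70 without overlap (limma adjusted p = 0.0565) and rose by 0.85 without replicate 3 (limma adjusted p = 0.00179). Ankrd1, a muscle ankyrin repeat protein of developing chambers, rose by 0.70 without replicate 3 (limma adjusted p = 0.00195), and Myl2, the ventricular regulatory light chain, by 0.50 (limma adjusted p = 0.00358), against 0.48 (limma adjusted p = 0.123) and 0.38 (limma adjusted p = 0.0986) with all arrays. All 11 atrial genes were above 0, in a narrow band of 0.31 to 0.47 with a median of 0.41. Groups did not overlap in the higher direction for 3 of the 11, beside 4.13% of all genes. Without replicate 3, 4 rose (against 6.8% of all genes) at a median of 0.55. Myh6, the alpha myosin heavy chain, rose by 0.68 in that fit (limma adjusted p = 0.00767) and Myl4, the atrial light chain, by 0.44 (limma adjusted p = 0.0076), against 0.41 (limma adjusted p = 0.342) and 0.31 (limma adjusted p = 0.194) with all arrays. Nr2f2, the nuclear receptor that sets atrial identity in the mouse, had a difference of 0.43 with no overlap (limma adjusted p = 0.171) and of 0.46 without replicate 3 (limma adjusted p = 0.0876).

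Genes of the sinus node, conduction system and outflow tract, sites affected by Nkx2-5 loss, mostly lay above 0. Of 15 sinus node and conduction genes 13 were above 0 with a median of 0.33. Their median without Nkx2-5+/- replicate 3 was 0.55, 6 rose (against 6.8% of all genes) and 1 fell (against 4.78%). Shox2, a homeobox factor of the sinus node that holds back Nkx2-5 in the mouse, had the largest difference of that list at 0.66 without overlap (limma adjusted p = 0.153). It rose by 0.83 without replicate 3 (limma adjusted p = 0.0246). Tbx18, a T-box factor of sinus horn and epicardium, had a difference of 0.66 without overlap (limma adjusted p = 0.0816) and rose by 0.73 without replicate 3 (limma adjusted p = 0.0143). Id2, an inhibitor of helix-loop-helix factors, rose by 0.71 in that fit (limma adjusted p = 0.00352), against 0.45 with all arrays (limma adjusted p = 0.226). Atrioventricular canal and outflow tract genes lay on both sides of 0, 11 of 15 above and 4 below, from -0.15 to 0.56 with a median of 0.14. With all arrays none of the 15 passed, beside 0.0401% of all genes. None had groups without overlap, beside 4.13% of all genes higher and 3.57% lower. A list of 15 is too short to tell 0 from these shares. Without replicate 3, 4 rose (against 6.8% of all genes) at a median of 0.35. Bmp4, a growth factor of the outflow tract, was 8.38, 8.76 and 8.35 in Nkx2-5+/-;Brg1+/- arrays, against 8.03, 7.60, 8.40 and 7.71 in Nkx2-5+/- arrays. Only replicate 3 of the Nkx2-5+/- arrays entered the Nkx2-5+/-;Brg1+/- range. The Bmp4 difference was 0.56 with all arrays (limma adjusted p = 0.0816), and Bmp4 rose by 0.72 without replicate 3 (limma adjusted p = 0.00279). Sema3c, a guidance molecule of the outflow tract, had a difference of 0.53 (limma adjusted p = 0.166) and rose by 0.79 without replicate 3 (limma adjusted p = 0.00274). Over 20 Bmp and Tgf-beta genes the median was 0.31, or 0.44 without replicate 3, where 9 rose (against 6.8% of all genes). Among them was the feedback inhibitor Smad7 at 0.68 (limma adjusted p = 0.00484), with 0.41 over all arrays (limma adjusted p = 0.304). Over 17 Notch pathway genes the median was 0.14, or 0.12 without replicate 3, where 2 rose (beside 6.8% of all genes). They included Hey2, a repressor of the atrial program in ventricular muscle, at 0.78 (limma adjusted p = 0.0101), with 0.49 over all arrays (limma adjusted p = 0.303).

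Ion handling and energy genes lay higher as well, with list medians of 0.15 to 0.30. Calcium handling genes had a median of 0.29 with 16 of 17 above 0, and without Nkx2-5+/- replicate 3 the median was 0.54 and 9 rose (against 6.8% of all genes). Camk2d, the calcium and calmodulin dependent kinase of heart muscle, rose by 0.67 in that fit (limma adjusted p = 0.00207) and Cacna2d1, a calcium channel subunit, by 0.61 (limma adjusted p = 0.00606), against 0.38 (limma adjusted p = 0.336) and 0.45 (limma adjusted p = 0.139) with all arrays. Potassium channel genes had a median of 0.15, or 0.33 without replicate 3. In that fit 1 of 14 rose, a share near the 6.8% of all genes. This was Kcnj5, a channel of atrial and nodal cells, at 0.70 (limma adjusted p = 0.00266), with 0.41 over all arrays (limma adjusted p = 0.32). Respiratory chain genes had a median of 0.23, or 0.32 without replicate 3, where 5 of 20 rose (against 6.8%), and 9 of 20 had groups that did not overlap in the higher direction, beside 4.13% of all genes. Cox7a1, a muscle isoform of cytochrome oxidase, was 10.09, 10.30 and 10.08 in Nkx2-5+/-;Brg1+/- arrays, against 9.75, 9.34, 9.83 and 9.21 in Nkx2-5+/- arrays. The groups stood apart and the difference was 0.62 (limma adjusted p = 0.0565), with a rise of 0.72 without replicate 3 (limma adjusted p = 0.00267). Cox6a2, another muscle isoform, had a difference of 0.66 (limma adjusted p = 0.0941) and rose by 0.71 without replicate 3 (limma adjusted p = 0.0294). Fatty acid genes had a median of 0.30, or 0.49 without replicate 3, where 6 of 16 rose (against 6.8%). The muscle fatty acid carrier Fabp3 was among them at 0.76 (limma adjusted p = 0.0263), with 0.61 over all arrays (limma adjusted p = 0.155). Glycolysis and hypoxia genes had a median of 0.20, or 0.39 without replicate 3. In that fit 10 of 20 rose (against 6.8%), including Pgk1, a glycolytic kinase, at 0.56 (limma adjusted p = 0.00313), while the Pgk1 difference with all arrays was 0.30 (limma adjusted p = 0.432).

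Epicardial genes lay higher to a like extent with and without Nkx2-5+/- replicate 3. The epicardium is the outer cell sheet of the heart. All 15 of its genes were above 0, from 0.21 to 0.72, with a median of 0.62, and 8 of 15 had groups that did not overlap (against 4.13% of all genes in the higher direction). The list mean was 9.10, 9.09 and 9.11 in Nkx2-5+/-;Brg1+/- arrays, against 8.80, 8.30, 8.71 and 8.51 in Nkx2-5+/- arrays. The groups stood apart and replicate 3 lay inside its own group. None of the 15 passed with all arrays, and 11 rose without replicate 3 (against 6.8% of all genes) at a median of 0.62. With the erythroid mean as a covariate the median was 0.56 with all arrays and 0.55 without replicate 3. Tcf21, a factor of epicardial and fibroblast precursors, was 9.70, 9.79 and 9.89 in Nkx2-5+/-;Brg1+/- arrays, against 9.52, 8.80, 9.32 and 9.06 in Nkx2-5+/- arrays. It had a difference of 0.62 (limma adjusted p = 0.0565) and rose by 0.67 without replicate 3 (limma adjusted p = 0.0037). Sema3d, a secreted guidance molecule of the epicardium, had a difference of 0.69 (limma adjusted p = 0.0565), Upk3b, a mesothelial membrane protein, one of 0.62 (limma adjusted p = 0.0565), and Wt1, the factor that marks the epicardium, one of 0.57 (limma adjusted p = 0.0816). Without replicate 3 Sema3d rose by 0.65 (limma adjusted p = 0.0161), Upk3b by 0.62 (limma adjusted p = 0.0112) and Wt1 by 0.62 (limma adjusted p = 0.0156).

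Matrix, mesenchyme and vessel genes mostly lay above 0. Of 20 collagen and matrix genes 19 were above 0 with a median of 0.42 and none passed. With all arrays 6 of 20 had groups that did not overlap in the higher direction, beside 4.13% of all genes. Without Nkx2-5+/- replicate 3 the median was 0.38 and 1 of 20 rose, a share below the 6.8% of all genes. This was Sparc, a collagen-binding glycoprotein, at 0.49 (limma adjusted p = 0.0108), with 0.48 over all arrays (limma adjusted p = 0.0615). Lum, a proteoglycan of the same family as Fmod, had the largest difference of that list at 1.07 (limma adjusted p = 0.0936) and one of 0.80 without replicate 3 (limma adjusted p = 0.114). Smooth muscle genes had a median of 0.38, or 0.48 without replicate 3, where 5 of 12 rose (against 6.8% of all genes), led by Acta2, smooth muscle actin, at 0.56 (limma adjusted p = 0.0018) and Tagln, transgelin, at 0.90 (limma adjusted p = 0.00197). With all arrays Acta2 had a difference of 0.28 (limma adjusted p = 0.473) and Tagln one of 0.53 (limma adjusted p = 0.289). Cushion mesenchyme genes, of the tissue that forms the valves, had a median of 0.19, or 0.38 without replicate 3, where 1 of 16 rose, a share near the 6.8% of all genes. With all arrays 4 of 16 had groups that did not overlap in the higher direction, beside 4.13% of all genes. Meox1, a homeobox factor, and Snai2, a factor of the endothelial to mesenchymal transition, had differences of 0.48 (limma adjusted p = 0.154) and 0.46 (limma adjusted p = 0.126), and of 0.53 (limma adjusted p = 0.0681) and 0.40 (limma adjusted p = 0.124) without replicate 3. Of 18 endothelial and endocardial genes 17 were above 0 with a median of 0.28, or 0.36 without replicate 3. None passed in limma with replicate 3 or without it, where 11.6% of all genes did. Erg, an ETS factor of endothelium, had a difference of 0.32 (limma adjusted p = 0.285), or 0.35 without replicate 3 (limma adjusted p = 0.162). Igf2, the growth factor expressed by the epicardium and other tissues, had a difference of 0.32 without overlap (limma adjusted p = 0.155) and rose by 0.41 without replicate 3 (limma adjusted p = 0.0195). The insulin-like growth factor list had a median of 0.29, or 0.35 without replicate 3, where 3 of 13 rose (against 6.8% of all genes).

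Red cell genes lay lower. All 15 erythroid genes lay below 0, from -1.86 to -1.05, with a median of -1.55, and none passed with all arrays. With Nkx2-5+/- replicate 3 left out, 13 of 15 fell (against 4.78% of all genes) at a median of -1.98. Alas2, the first enzyme of haem synthesis in red cells, was 10.61, 9.77 and 11.45 in Nkx2-5+/-;Brg1+/- arrays, against 12.75, 12.64, 10.60 and 12.66 in Nkx2-5+/- arrays. Replicate 3 of the Nkx2-5+/- arrays lay in the middle of the Nkx2-5+/-;Brg1+/- values. The difference was -1.55 (limma adjusted p = 0.0872), and Alas2 fell by 2.07 without replicate 3 (limma adjusted p = 0.00243). Tfrc, the transferrin receptor that takes up iron, was the erythroid gene whose groups did not overlap, with a difference of -1.34 (limma adjusted p = 0.07), and it fell by 1.45 without replicate 3 (limma adjusted p = 0.0104). Epb42, a red cell membrane skeleton protein, fell by 2.27 (limma adjusted p = 0.00352) and Tal1, a factor of blood cell specification, by 1.48 (limma adjusted p = 0.00307), both without replicate 3. With all arrays the differences were -1.64 for Epb42 (limma adjusted p = 0.117) and -1.05 for Tal1 (limma adjusted p = 0.124). Hba-x, an embryonic alpha globin, had a difference of -0.40 (limma adjusted p = 0.244) and fell by 0.56 without replicate 3 (limma adjusted p = 0.0289). Globin genes numbered 3, all lay below 0, and their median was -0.40, or -0.56 without replicate 3. Macrophage genes had a median of 0.08, or -0.02 without replicate 3, and no call in either limma fit. Csf1r, the macrophage growth factor receptor, was at 0.46 (limma adjusted p = 0.274), or 0.22 without replicate 3 (limma adjusted p = 0.513). Megakaryocyte genes had a median of -0.02, or -0.29 without replicate 3, and no call either. The fit without replicate 3 called 11.6% of all genes, and these lists of 16 and 8 genes are too short to set 0 against that share.

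Most cell cycle genes lay below 0, although calls without Nkx2-5+/- replicate 3 went both ways. Of 24 genes 21 were below 0 with a median of -0.31, and none passed with all arrays. Without replicate 3 the median was again -0.31, 5 fell (against 4.78% of all genes) and 3 rose (against 6.8%). The list pools genes that drive cell division with inhibitors of it. Both the falls and the rises include an inhibitor, so these counts do not give a direction of cell division. Aurka, a mitotic kinase, was 9.25, 9.20 and 9.40 in Nkx2-5+/-;Brg1+/- arrays, against 9.60, 10.01, 9.67 and 9.84 in Nkx2-5+/- arrays. The groups did not overlap, and replicate 3 lay inside its group. The difference was -0.50 (limma adjusted p = 0.0568), and Aurka fell by 0.54 without replicate 3 (limma adjusted p = 0.00646). Plk1, another mitotic kinase, had a difference of -0.41 (limma adjusted p = 0.071) and fell by 0.41 without replicate 3 (limma adjusted p = 0.0171), while Ccnd1, the cyclin of early G1, rose by 0.57 there (limma adjusted p = 0.0132), with 0.33 over all arrays (limma adjusted p = 0.414). With the erythroid mean as a covariate the cell cycle median was -0.10, and dividing blood precursors also express these genes, whose share was not tested. Immediate early genes, which respond to growth signals and handling, had a median of 0.05, or 0.09 without replicate 3, where 2 of 18 rose (beside 6.8% of all genes) and 2 fell (beside 4.78%). Dusp1, a phosphatase, had a difference of -0.77 without overlap (limma adjusted p = 0.0807) and fell by 0.93 without replicate 3 (limma adjusted p = 0.00477). Btg2, an antiproliferative factor, had a difference of -0.72 (limma adjusted p = 0.0867) and fell by 0.99 without replicate 3 (limma adjusted p = 0.00179). Jun, a subunit of AP-1, had a difference of 0.37 (limma adjusted p = 0.33) and rose by 0.62 without replicate 3 (limma adjusted p = 0.00618). Markers of tissues beside the heart gave few calls, in short lists, where the fit without replicate 3 called 11.6% of all genes. Skeletal and pharyngeal muscle and neural genes had medians of 0.01 and -0.01, or -0.10 and 6.67e-04 without replicate 3, and no call in either limma fit. Of 14 foregut genes 1 rose without replicate 3, a share near the 6.8% of all genes. This was Krt7, an epithelial keratin, at 0.55 (limma adjusted p = 0.0138), with 0.55 over all arrays (limma adjusted p = 0.0578). Of 13 liver genes 12 were above 0, with a median of 0.38, or 0.24 without Nkx2-5+/- replicate 3, and no call in either limma fit. Their list mean was 6.62 in Nkx2-5+/-;Brg1+/- replicate 3, against 5.20 to 5.785 in the rest of the 7 arrays. The Y-linked gene Uty had a difference of 1.82 (limma adjusted p = 0.592), or 1.38 without Nkx2-5+/- replicate 3 (limma adjusted p = 0.648). The mean of a list of sex-linked genes was 6.81, 5.30 and 7.31 in Nkx2-5+/-;Brg1+/- arrays, against 5.65, 5.39, 5.32 and 6.80 in Nkx2-5+/- arrays. How male and female hearts were spread over the groups was not tested.

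**Figure D4:**
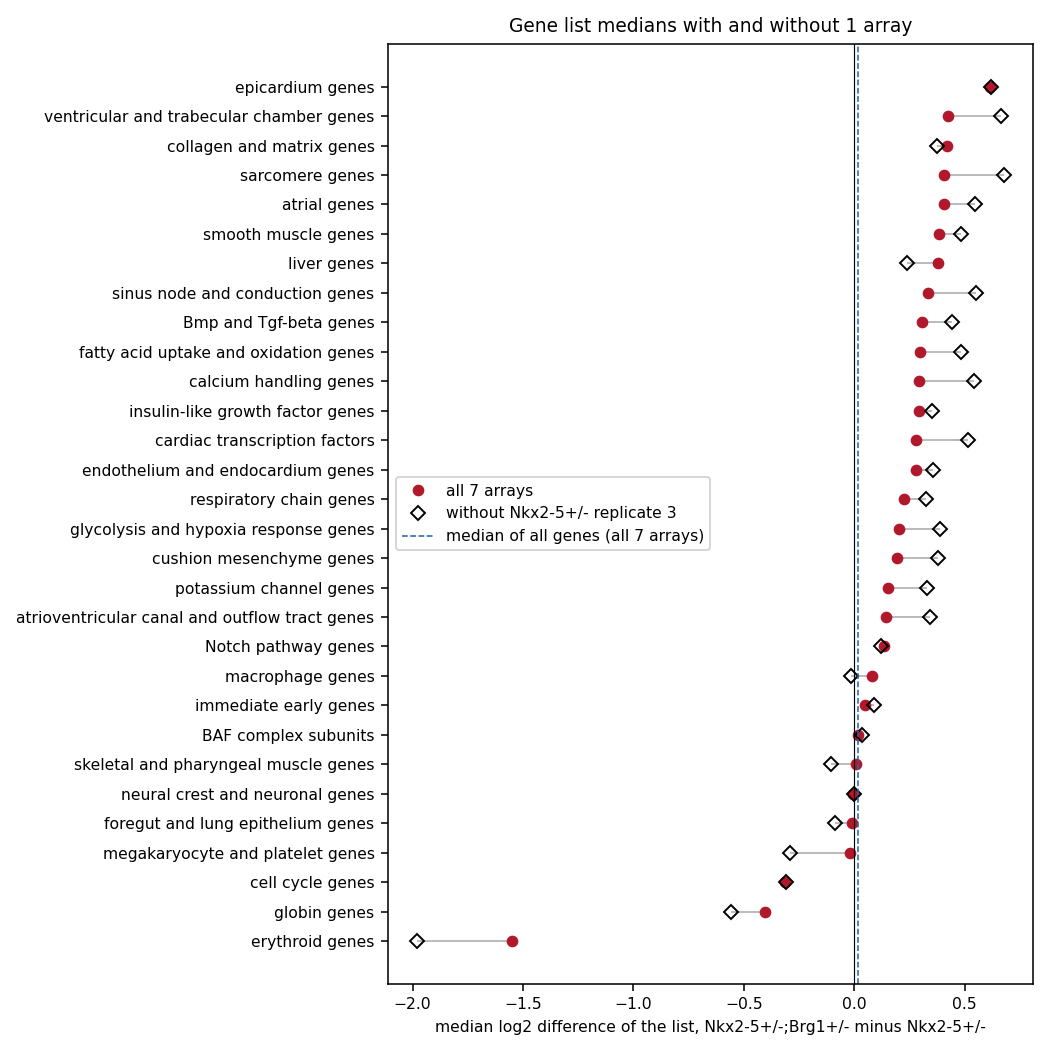
Median log2 difference, Nkx2-5+/-;Brg1+/- minus Nkx2-5+/-, of the gene lists other than the sex-linked one, with all 7 arrays (filled circles) and without Nkx2-5+/- replicate 3 (open diamonds); the dashed line is the median of all genes. The epicardium list sits at 0.62 in both, the sarcomere list at 0.41 and 0.68, and the erythroid list at -1.55 and -1.98.

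Whether the Brg1 difference in Nkx2-5+/- hearts departs from that in hearts with both Nkx2-5 copies was tested as an interaction, with Brg1+/- and wild-type hearts as the second pair. Of 19935 genes 987 passed (4.95%, limma adjusted p under 0.05), 445 higher (2.23%) and 542 lower (2.72%), and equalising array medians gave 1011 genes of which 26.4% were higher, against 45.1% as deposited. This comparison uses the same 7 arrays as the one above, so its values are given beside it and not as separate support. Apela had a Brg1 difference of 1.0 in Nkx2-5+/- hearts and of -0.12 between Brg1+/- and wild-type hearts, and these differed by 1.12 (limma adjusted p = 0.0131). Fmod had 0.94 and -0.08, a difference of 1.02 (limma adjusted p = 0.0166), and Aebp1 had 0.78 and -0.32, a difference of 1.09 (limma adjusted p = 0.0131). Arel1 had -0.83 and 0.11, a difference of -0.94 (limma adjusted p = 0.0189). Tbx5 had 0.43 and -0.45, a difference of 0.88 (limma adjusted p = 0.0189). Leaving out Nkx2-5+/- replicate 3, these interactions were 1.16 for Apela, 1.0 for Fmod, 1.06 for Aebp1, -1.09 for Arel1 and 1.04 for Tbx5, with limma adjusted p between 5.99e-04 and 0.00176. Smarca4 itself fell by 0.74 in Brg1+/- hearts against wild type (limma adjusted p = 3.1e-04), and its interaction of 0.29 did not pass (limma adjusted p = 0.31), nor did that of 0.18 without replicate 3 (limma adjusted p = 0.474).

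Among the lists, 14 of 15 erythroid genes were lower in the interaction (against 2.72% of all genes), and Brg1+/- arrays had a higher erythroid median than wild-type arrays by 0.93. Of 15 epicardial genes 5 were higher, of 20 cardiac transcription factors 5 and of 31 sarcomere genes 4, against 2.23% of all genes. When Nkx2-5+/- replicate 3 was left out, 15 of 15 erythroid genes were lower (against 5.57% of all genes), and 11 of 15 epicardial genes, 14 of 20 cardiac transcription factors and 27 of 31 sarcomere genes were higher (against 10.6%). Shox2 differed by 1.31 (limma adjusted p = 0.0203) and Bmp4 by 0.97 (limma adjusted p = 0.0166), or by 1.48 (limma adjusted p = 0.00149) and 1.12 (limma adjusted p = 5.19e-04) without replicate 3. The erythroid medians of the 2 pairs thus had opposite signs, and with the erythroid mean as a covariate limma called 0 genes (682 at an unadjusted p under 0.05). Without Nkx2-5+/- replicate 3 the count was 3224 (16.2%), without Nkx2-5+/- replicate 2 it was 14, without Nkx2-5+/-;Brg1+/- replicate 1 it was 6 and without its replicate 2 it was 8, so the number of genes rests on single arrays.

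The same Brg1 difference could be set against a pair with no array in common, Tbx5+/-;Brg1+/- and Tbx5+/- hearts. That pair had 0 called genes of its own in limma (494, or 2.48%, at an unadjusted p under 0.05), and its replicate 3 labelled Tbx5+/-;Brg1+/- had a Smarca4 signal against its label. The difference between the pairs was called for 0 genes in limma, with 2134 (10.7%) at an unadjusted p under 0.05. The 5 genes with the smallest p, all at a limma adjusted p of 0.345, were Slc4a4, a sodium bicarbonate cotransporter, Snx11, a sorting nexin, Aebp1, Cyp2c68, a cytochrome P450, and Fmod. Slc4a4 had 0.54 in the Nkx2-5 pair and -0.22 in the Tbx5 pair, Snx11 had -0.43 and 0.21, and Cyp2c68 had 0.67 and -0.34. In the Nkx2-5 pair without replicate 3, Slc4a4 had 0.64 (limma adjusted p = 0.00128), Snx11 -0.37 (limma adjusted p = 0.0124) and Cyp2c68 0.68 (limma adjusted p = 0.0113). Apela had 1.0 and 0.11, S100a6 0.99 and 0.16, and Cd82 0.71 and 0.01. Without Nkx2-5+/- replicate 3, 1035 genes passed (5.19%), 560 higher (2.81%) and 475 lower (2.38%), with Slc4a4 at 0.00804, Apela at 0.0208 and Fmod at 0.0212 as limma adjusted p. When the Tbx5+/-;Brg1+/- array with Smarca4 against its label was left out too, 2 genes passed.

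**Figure D5:**
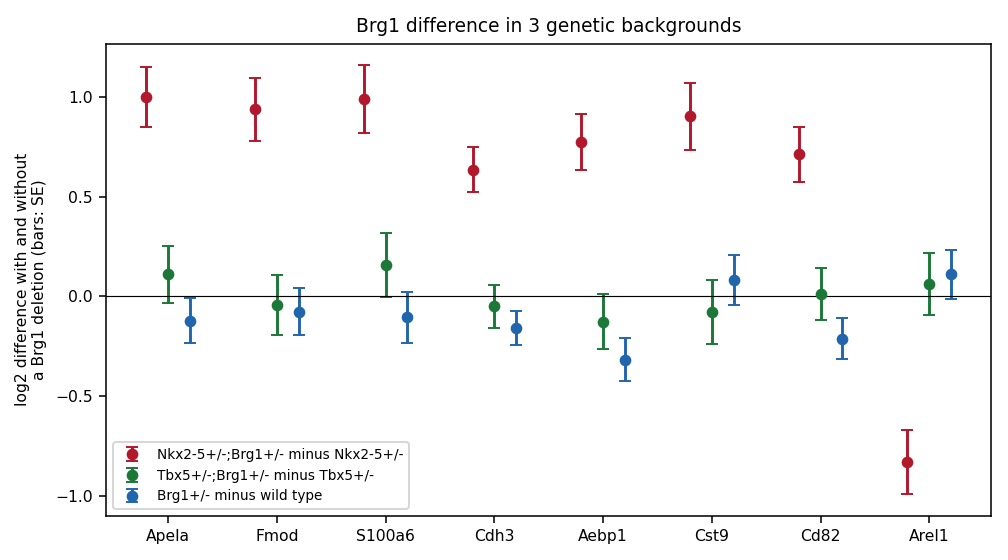
Log2 difference, with its SE as whiskers, of the 8 called genes between hearts with and without a Brg1 deletion in the label, on an Nkx2-5+/-, a Tbx5+/- and an otherwise wild-type background. The Nkx2-5+/- values run from 0.63 to 1.0 for 7 genes and stand at -0.83 for Arel1, and those of the other backgrounds lie between -0.32 and 0.16.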

How the data were processed

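Values were the deposited RMA log2 signals of 28815 probe sets, made by the authors with Affymetrix Power Tools according to the submitters' processing notes (no version given). They ran from 1.64 to 15.144 with array medians of 6.181 to 6.328 and were used without further normalization. Arrays carry no counts, so their number limits the precision. Probe sets with 1 gene symbol in the platform annotation (21780) were kept, not those with several (1605) or none listed (5430), and the probe set with the highest mean was taken for 998 genes with several, leaving 19935 genes, of which 19853 matched the RefSeq gene table of GRCm38.p6.

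Differences were fitted with limma 3.58.1 in R 4.3.3: a mean for each of 6 genotype groups, all 27 arrays, 21 residual and 6.71 prior degrees of freedom, two-sided tests, Benjamini-Hochberg adjustment over all genes within a comparison, called at an adjusted p under 0.05. On simulated data for the main comparison, 31.3%, 94% and 100% of genes changed by log2 0.5, 1 and 2 were called, and 0.0456% of 19735 unchanged genes. The simulated noise was drawn independently for each gene and array, with no deviating array and no signal shared between genes. These shares therefore do not describe the error rates in the real arrays.

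The members and 31 gene lists were chosen with earlier results of these data known. Several lists share genes, so their results are not separate. Named were the called genes, up to 15 in each direction, and up to 4 called or the 2 members with the smallest p of each list, with the same rule applied without Nkx2-5+/- replicate 3; in the difference from the Tbx5 pair the 5 smallest p; some were left out. The genes named from the fit without that array were chosen with its values seen. Alternatives were 2 other scalings, filters, probe set rules, variance priors, array weights, the compared groups alone, the replicate number as a block, covariates for erythroid and Y-linked signal, and each array left out. The labels state no pairing by replicate number. Deviations from the group mean correlated at 0.14, 0.11 and 0.03 for same-numbered arrays of the 2 groups. For different-numbered arrays they correlated at -0.24 to 0.18. So few arrays cannot decide whether same-numbered arrays belong together. Plots used matplotlib 3.10.9 (Python 3.11.15).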

Additional observations from a re-analysis of the deposited data

Results flagged for a closer look

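An array was marked where its gap to the nearest of its group was too large a share of the group's range by Dixon's test, which chance alone does in about 1 in 20 groups; 8 of 76 groups were marked. The items overlap, since lists share genes and Alas2 and Nkx2-5 are also list members. The 8 of 76 thus cannot be set against 1 in 20. Nkx2-5+/- replicate 3 accounted for 6 of the marks. It was the highest of its group in the list means of atrial genes (9.75), sinus node and conduction genes (7.91) and sarcomere genes (10.81) and in Nkx2-5 (9.39), and the lowest in the erythroid list mean (8.95) and in Alas2 (10.60). The other marked values were Tbx5 in wild-type replicate 6 (8.96) and Cd82 in Brg1+/- replicate 5 (9.82).

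The Brg1 difference in Nkx2-5+/- hearts differed from that in hearts with both factor copies for 44 of the 78 named genes. The test was limma's interaction (adjusted p under 0.05), which 4.95% of all genes passed. Many named genes were picked for a small p in the main comparison, which uses the same 7 arrays. The larger share among them is therefore no separate result. Values are the first difference minus the second, on the log2 scale. Among the genes called in the main comparison the values were 1.12 for Apela, 1.02 for Fmod, 1.10 for S100a6, 0.80 for Cdh3, 1.09 for Aebp1, 0.82 for Cst9, 0.93 for Cd82 and -0.94 for Arel1. Among heart transcription factors and chamber genes the values were 0.88 for Tbx5, 0.65 for Gata4, 0.81 for Gata6, 0.64 for Hand2, 0.76 for Smpx, 0.86 for Nr2f2 and 1.31 for Shox2. Among sarcomere and energy genes the values were 1.23 for Myoz2, 0.82 for Csrp3, 0.92 for Cox7a1, 0.89 for Cox6a2 and 0.87 for Atp1b1. Among signalling, epicardial and matrix genes the values were 0.97 for Bmp4, 0.50 for Igf2, 0.84 for Tcf21, 0.96 for Sema3d, 0.79 for Upk3b, 1.42 for Lum, 0.62 for Sparc and 0.93 for Krt7. Among blood genes the values were -2.08 for Alas2, -1.91 for Tfrc, -2.53 for Epb42, -1.79 for Tal1, -0.73 for Hba-x, -3.08 for Rhag and 0.95 for Csf1r. Among the others the values were -0.56 for Pbrm1, -0.67 for Aurka, -0.56 for Plk1, -1.21 for Dusp1, -1.13 for Btg2, -2.97 for Mt2, 0.82 for Slc4a4, -0.51 for Snx11 and 1.06 for Cyp2c68. With the erythroid mean as a covariate none of these interactions passed. Alas2, Tfrc, Epb42, Tal1 and Rhag are themselves part of that mean. For them the covariate takes out their own signal, so that result carries no information. For the other genes the part of the red cell signal was not tested further.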

How the results depend on the processing

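The count of 8 called genes depended on the processing. It was 8 with all probe sets and with gene means over probe sets, 3 with array medians equalised, 121 after quantile normalization (67.8% higher, against 87.5%), 140 without the dimmest genes, 88 with a trended robust prior, 3680 with array weights, 1 with the erythroid mean and 3 with the Y-linked mean as a covariate, 0 in the compared groups alone (1797 at an unadjusted p under 0.05) and 2363 without the 2 arrays whose Smarca4 goes against the label. It was 0 in limma without Nkx2-5+/- replicate 3 and with the erythroid mean as a covariate, an alternative chosen after seeing the data (2084 at an unadjusted p under 0.05). Leaving out single arrays gave 0 to 2308 genes, with 2308 without Nkx2-5+/- replicate 3, 357 without Nkx2-5+/-;Brg1+/- replicate 3 and 0 without its replicate 2. With the replicate number as a block it was 412, although the labels state no pairing by number. Over 20 settings Apela was called in 17, Fmod and S100a6 in 14, Aebp1 in 12, Cdh3 in 11, Cd82 in 10 and Arel1 in 9, and Cst9 in 11 of the 19 that tested it.

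The interaction count of 987 was 4235 with array weights, 25 in the compared groups alone, 3258 without the pair against the label, and 0 with the erythroid covariate, with or without Nkx2-5+/- replicate 3. Leaving out single arrays gave 6 to 3224 genes, and the replicate block gave 1368. The difference from the Tbx5 pair gave 2333 genes with array weights, 2 without the pair against the label, 0 to 1035 when single arrays were left out and 0 with the replicate block. Signs turned with the erythroid mean as a covariate for Nkx2-5 (-0.0597), Pgk1 (-0.0288), Hba-x (0.0574) and Rhag (0.0635), and, also without Nkx2-5+/- replicate 3, for Tfrc (0.0043), Hba-x (0.0432), Csf1r (-0.067), Rhag (0.0730) and Mt2 (0.55). Tfrc and Rhag are part of the erythroid mean, so for them small values of either sign follow from the covariate itself. The cause of the other changes was not tested. The values carry no detection calls or background, so dim genes such as Cst9 could not be bounded.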
